A study of Aspergillus fumigatus with 4 samples.

Results

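The genes described here are those of the filamentous fungus *Aspergillus fumigatus* Z5, a strain that breaks down plant biomass, whose reads were far more abundant on cellulose than on any other carbon source tested. A gene was taken when its level on cellulose was at least 10 RPM (reads in 1000000 mapped reads) and at least 4 times its level in each of the other libraries, with 0.5 reads added to every count. Of 9540 genes in the table, 256 met this rule (2.68%). Leaving out 12 of them by name, among them the cellobiohydrolase Y699_04296, the β-glucosidase Y699_00572 and several conidial genes, left 244 genes (2.56%). The genes were thus chosen by their reads in all 4 libraries, and the higher level on cellulose is given as a description, with no test.

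The study compared how the fungus transcribes its genes on polysaccharides. Mycelium was grown from conidia with sucrose at 45 °C and 145 rpm, and was then moved to cellulose (Avicel, a microcrystalline cellulose), rice straw or xylan as the only carbon source and kept there for 16 h, while mycelium on sucrose served as the control. The 4 groups were strain Z5 on cellulose, on rice straw, on xylan and on sucrose, with 1 RNA-seq library each and no replicate. The preculture lasted 20 h according to the sample labels, while the methods of the study give a longer time, and the 3 polysaccharide cultures were washed and received a medium without yeast extract. When the sucrose culture was harvested is not clear from the sources used here, so carbon source, transfer, medium and culture age cannot be told apart against sucrose. Among the polysaccharide libraries the transfer was shared.

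The libraries held 7016686 reads on cellulose, 7553138 on rice straw, 6820702 on xylan and 7005719 on sucrose, so that 1 read corresponded to between 0.132 and 0.147 RPM. RPM is a read count divided by the library total and is not corrected for gene length. Intervals given with ratios are exact 95% intervals for counting error in PCR-amplified reads without molecular identifiers, and they cover no variation between cultures. A median gene was 0.34 higher on cellulose than on rice straw, 0.25 higher than on xylan and 0.04 higher than on sucrose on the log2 scale, whereas the 244 genes were higher by medians of 3.08, 3.43 and 3.58. In RNA from whole mycelium, fewer cells of a kind and less RNA per cell cannot be told apart.

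Cellulose is a chain of glucose units that fungi attack from outside with secreted enzymes. Fungal hyphae that run short of carbon or nitrogen are known to recycle amino acids and their own wall polymers, to form asexual spores (conidia), and to make secondary metabolites, compounds that are assembled by large polyketide and nonribosomal peptide synthases encoded beside their tailoring enzymes. Ribosome production, in contrast, is known to run high in growing hyphae. Genes described with all of these roles were found among the 244. Whether any of these cultures ran short of carbon or nitrogen was not tested.

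**Figure D1:**
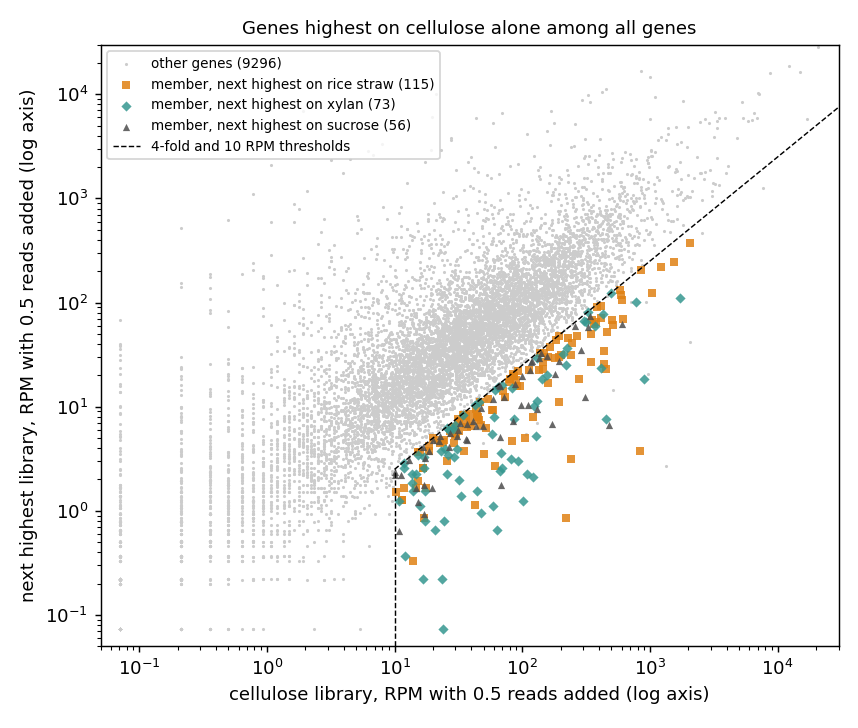
Level of each gene in the cellulose library (x axis) and in the highest of the other 3 libraries (y axis), both in RPM with 0.5 reads added and on log axes. Coloured points are the 244 genes, with shape and colour giving the library that came next, grey points are the other 9296 genes of the table, and dashed lines mark the 4-fold and 10 RPM thresholds. The 12 grey points past both lines were left out by name, and most coloured points lie close under the 4-fold line.

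The 244 genes spanned from 9.98 to 2057 RPM on cellulose before the 0.5 reads were added, with a median of 60.3 RPM against 25.2 RPM for all genes in that library. Their medians elsewhere were 5.96 RPM on rice straw, 3.89 RPM on xylan and 3.997 RPM on sucrose, where all genes had medians of 20.3, 21.1 and 22.7 RPM. Together they took 3.87% of the cellulose reads, 0.468% of the rice straw reads, 0.348% of the xylan reads and 0.311% of the sucrose reads. Most were moderate in size of difference. The median ratio to the next highest library was 6.07, the upper quartile was 10.8, and 63 genes reached a ratio of at least 10, 12 of at least 50 and 4 of at least 100. Only 5 genes exceeded 1000 RPM on cellulose. No member was without reads on cellulose, while 10 had none on rice straw, 3 none on xylan and 7 none on sucrose.

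Rice straw, which also contains cellulose, came next for 115 of the 244 genes (47.1%), xylan for 73 (29.9%) and sucrose for 56 (23.0%). Across all 9540 genes the highest of these 3 libraries was sucrose for 44.7%, rice straw for 32.4% and xylan for 22.9%. Where xylan came next the median ratio was 8.63, against 5.67 where rice straw and 5.53 where sucrose did. The coding length of the members had a median of 1406 bases and ran from 165 to 11820 bases, and that of all genes had a median of 1275 bases. Genes under 600 bases made up 11.9% of the members and 13.9% of all genes.

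At the 4-fold threshold the last genes inside were the small nucleolar ribonucleoprotein subunit Y699_06142 with a ratio of 4.005, Mpp10 (Y699_05970) with 4.03 and the undescribed Y699_01638 with 4.03. Just outside stood the enoyl-CoA hydratase family gene Y699_09419 at 3.999, the elongator complex gene Y699_06086 at 3.99 and the gene for a cAMP-independent regulatory protein, Y699_07252, at 3.98. At the level threshold Y699_03196 and Y699_08673, both at 10.1 RPM, and Y699_05901 at 10.2 RPM were inside, and Y699_07161 at 9.91 RPM, Y699_02086 at 9.76 RPM and Y699_00540 at 9.76 RPM were outside. The counting intervals of the 3 genes just inside the 4-fold line all included 4, so membership there is within counting error. Doubt of this kind was not limited to them. Without added reads, Y699_00228 had a ratio of 7.36 (interval 3.99 to 14.8) and Y699_02089 of 6.16 (interval 3.55 to 11.4). Intervals of HmgA (Y699_03206, 3.66 to 4.87) and PacC (Y699_01358, 3.92 to 4.39) also included 4. That of inositol oxygenase (Y699_02811, 5.34 to 5.79), in contrast, lay above 4.

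The most abundant member was inositol oxygenase (Y699_02811), the enzyme that opens the ring of myo-inositol to give glucuronic acid. It had 2057 RPM on cellulose, against 370.2 on rice straw, 26.1 on xylan and 5.71 on sucrose. The order of the libraries was thus cellulose, rice straw, xylan and sucrose, and the ratio of cellulose to rice straw was 5.56-fold (95% interval 5.34 to 5.79). Divided by coding length, inositol oxygenase was also first, at 2163 RPM per kb on cellulose. HMG-CoA reductase (Y699_03153), the enzyme that sets the pace of sterol synthesis, had 1227 RPM on cellulose, against 217 on rice straw, 179.7 on xylan and 160.3 on sucrose. A gene for a BTB/POZ domain protein (Y699_07871), a fold through which proteins bind each other, had 1047 RPM on cellulose, against 123 on rice straw, 29.0 on xylan and 8.71 on sucrose. HMG-CoA reductase was nearly level on the other carbon sources, whereas the BTB/POZ gene was ordered rice straw, xylan and sucrose from high to low.

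Further members among the 10 most abundant had no description in the tables used. Y699_01075 had 1708 RPM on cellulose, against 40.2 on rice straw, 111 on xylan and 45.4 on sucrose. Y699_00663 had 906 RPM on cellulose, against 6.75 on rice straw, 18.5 on xylan and 3.57 on sucrose. The small gene Y699_02340, of 411 bases, had 780.4 RPM on cellulose, against 65.7 on rice straw, 102 on xylan and 40.8 on sucrose, and reached 1899 RPM per kb on cellulose, second among the members in this order after inositol oxygenase. For all of these undescribed genes the next library was xylan and not rice straw.

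An α-1,3-glucanase of family GH71 (Y699_03183), an enzyme that cuts the α-glucan of the fungus's own cell wall, was also among the 10 most abundant members and had 831 RPM on cellulose, against 3.71 on rice straw, 0.88 on xylan and 0.856 on sucrose. Its ratio to rice straw was 224-fold (95% interval 155 to 338), and it had 6 reads on xylan and 6 on sucrose. The neighbouring gene Y699_03182, left out by name, carries the same description and the same counterpart in strain Af293. Coding lengths were 573 bases for Y699_03183 and 834 bases for Y699_03182. Whether both are near-identical copies or parts of a single gene split in the annotation was not tested. If they are copies, reads shared between them cannot be assigned with certainty. A further GH71 gene, Y699_05485, chosen for naming after its values were seen, had 32.9 RPM on cellulose, against 0.927 on rice straw, 1.32 on xylan and 0.999 on sucrose. Of 8 GH71 genes in the authors' list, which counts these neighbours separately, 2 were members and 1 had been left out by name.

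Other members are described as enzymes that cut glucans or chitin, polymers found in the fungal wall. Which substrate they act on here was not tested. Their families did not rise as a whole. Of 14 listed GH16 genes, 4 had their highest level on cellulose and 7 on sucrose, and of 7 GH55 genes 3 and 4. Of 17 GH18 genes, the chitinase family, 9 were highest on cellulose and 2 on sucrose. The summed GH18 level was 1919 RPM on cellulose, against 3329 on rice straw, 2280 on xylan and 1081 on sucrose. The class III chitinase Y699_08538 had 105 RPM on cellulose, against 4.9 on rice straw, 0.88 on xylan and 0.571 on sucrose, a ratio of 21.5-fold (95% interval 15.4 to 30.7) to rice straw. An endo-1,3(4)-β-glucanase of family GH16 (Y699_07776) had 167 reads on cellulose and 0 reads in each of the other libraries, so it was at least 54.1-fold higher on cellulose when 3 reads are set as the limit that 0 reads allow in a library. Engl1 (Y699_06862), an endo-β-1,3-glucanase of family GH81 and the only gene of that family in the list, had 328 RPM on cellulose, against 51.5 on rice straw, 40.8 on xylan and 58.0 on sucrose. The exo-β-1,3-glucanase Y699_01799 of family GH55 had 71.4 RPM on cellulose, against 6.88 on rice straw, 11 on xylan and 12.4 on sucrose. Levels of Engl1 and Y699_01799 on the other carbon sources were well above 0, while those of the chitinase and of Y699_07776 were near 0 or at 0 on xylan and sucrose.

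In all, 17 of 272 glycoside hydrolase genes were members (6.25%), beside 6 that met the rule and were left out by name, 1 of 98 glycosyltransferases (1.02%) and 0 of 14 polysaccharide lyases and of 69 carbohydrate esterases. The median glycoside hydrolase was 1.11 higher on cellulose than on sucrose (log2), against 0.04 for all genes, and 0.54 lower on cellulose than in the highest other library, against 0.40 lower for all genes. Of 51 listed cellulases 3 were members, the GH16 endo-1,3(4)-β-glucanases Y699_07776, Y699_06770 and Y699_04817, and 3 more met the rule and were left out by name, among them the cellobiohydrolase Y699_04296 and the β-glucosidase Y699_00572. The 43 hemicellulases also held 3 members, and the 33 pectinases none. Endo-arabinanases, which cut the arabinan side chains of pectin, gave a pair of them: Y699_02459 had 219 RPM on cellulose, against 23.7 on rice straw, 24.9 on xylan and 19.7 on sucrose, and Y699_02394 had 66.8 RPM on cellulose, against 0.794 on rice straw, 2.35 on xylan and 0.999 on sucrose. The β-mannosidase Y699_08834, which releases mannose from mannan fragments, had 200.1 RPM on cellulose, against 31.0 on rice straw, 7.77 on xylan and 4.85 on sucrose. The arabinanases were at like levels on rice straw and sucrose, and the β-mannosidase stood higher on rice straw.

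Enzymes that handle mannose on glycoproteins included a family GH92 α-1,2-mannosidase (Y699_08193), which trims mannose chains and had 354 RPM on cellulose, against 67.4 on rice straw, 17.4 on xylan and 4.14 on sucrose. The α-1,3-mannosyltransferase Y699_04561 of family GT71, which adds mannose, had 195 RPM on cellulose, against 29.7 on rice straw, 6.3 on xylan and 0.999 on sucrose. Both declined in the order cellulose, rice straw, xylan and sucrose. A starch-type glucoamylase gene (Y699_08026) and an α-glucosidase (Y699_06649) were low, at 34.9 and 15.8 RPM on cellulose, and Y699_06649 was the only member among 227 secretory pathway genes (0.441%), a list in which 1 further gene met the rule and was left out by name.

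**Figure D2:**
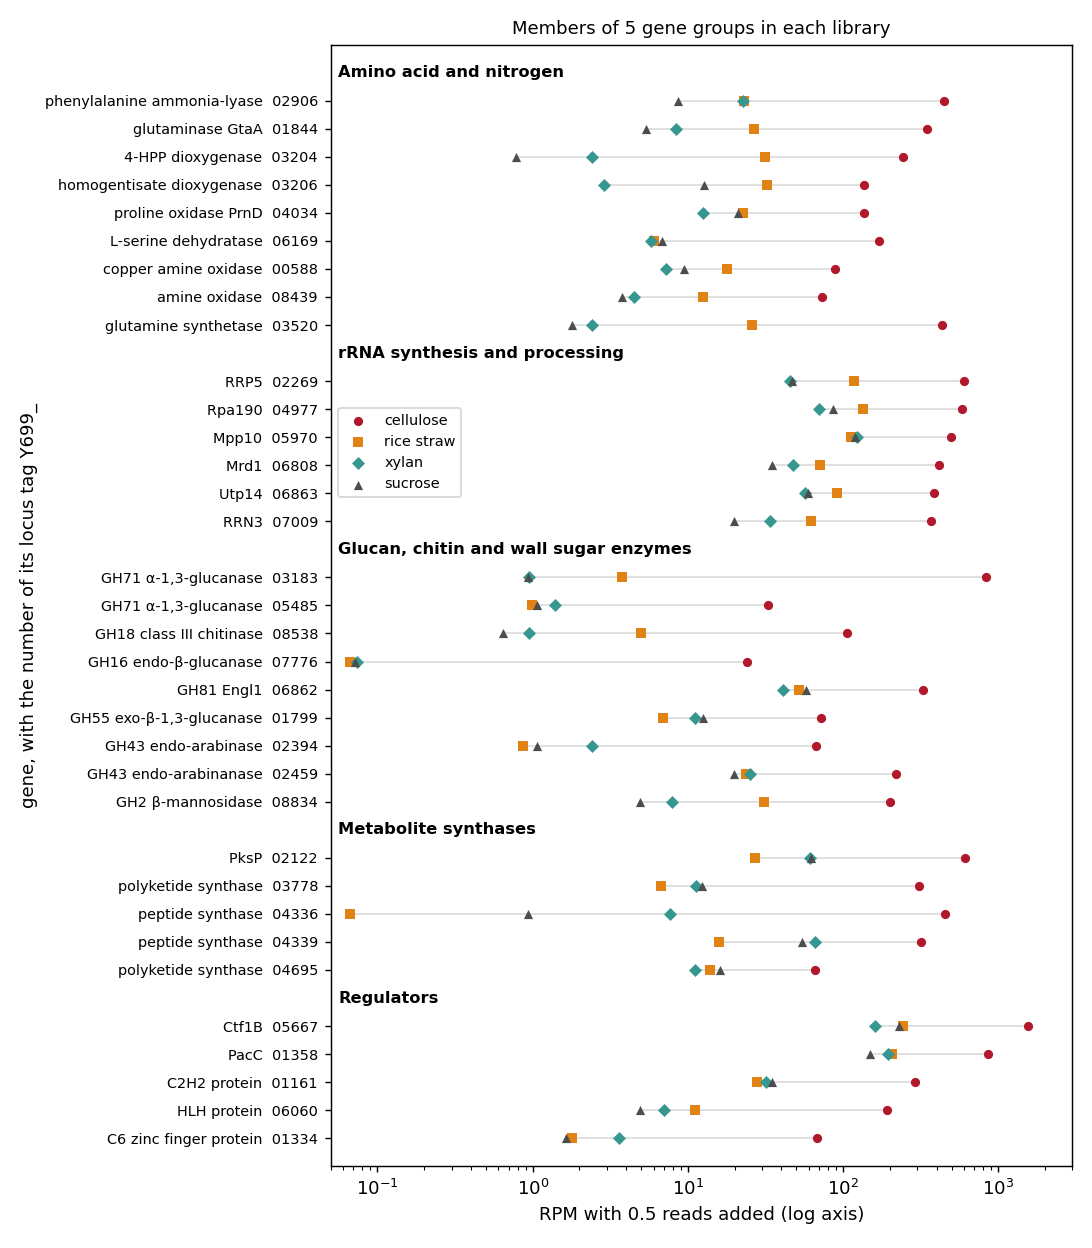
RPM with 0.5 reads added (log axis) in the 4 libraries for members of 5 gene groups, 1 gene per row and 1 symbol per library, with 1 library per carbon source and therefore no error bars. Cellulose is at the right end of every row. The genes for rRNA synthesis and processing stay far from the left edge on every carbon source, while the peptide synthase Y699_04336 and the endo-β-glucanase Y699_07776 reach the left edge, where a count of 0 is drawn.

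Genes found by words for the breakdown of amino acids, a list that also took in amine oxidases, were members in 8 of 15 cases (53.3%). The word list behind this count searched the descriptions held for 2588 genes, of which 149 were members (5.76%). Those descriptions come mainly from a table of genes that the authors found to vary between these libraries, and shares counted within them are not independent evidence. The words were also set with earlier results of these data known, so the share of 53.3% partly reflects that choice. Phenylalanine ammonia-lyase (Y699_02906), which removes ammonia from phenylalanine, was the most abundant, with 449 RPM on cellulose, against 22.8 on rice straw, 22.4 on xylan and 8.56 on sucrose. Glutaminase GtaA (Y699_01844), which splits glutamine into glutamate and ammonia, had 347 RPM on cellulose, against 26.6 on rice straw, 8.36 on xylan and 5.28 on sucrose. The L-serine dehydratase Y699_06169, which turns serine into pyruvate and ammonia, had 170.3 RPM on cellulose, against 5.96 on rice straw, 5.72 on xylan and 6.71 on sucrose. The last of these was flat across rice straw, xylan and sucrose, while glutaminase was not.

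Proline oxidase PrnD (Y699_04034), the first step of proline use as known from *Aspergillus nidulans*, had 136 RPM on cellulose, against 22.5 on rice straw, 12.5 on xylan and 21.0 on sucrose. Amine oxidases release ammonia from amines, and Y699_00588 and Y699_08439, named after their values were seen, had 88.7 and 72.7 RPM on cellulose and no more than 17.9 RPM elsewhere. A threonine aldolase (Y699_08672), also named after its values were seen and outside the word list, had 68.4 RPM on cellulose, against 1.06 on rice straw, 0.44 on xylan and 1.71 on sucrose. It splits threonine into glycine and acetaldehyde. Of the 15 genes of the list, 10 had their highest level on cellulose, the 8 members among them by the rule.

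Tyrosine is broken down through 4-hydroxyphenylpyruvate and homogentisate, and the genes of both steps stood close together, with 1 gene between them. The dioxygenase for 4-hydroxyphenylpyruvate (Y699_03204) had 241 RPM on cellulose, against 31.4 on rice straw, 2.35 on xylan and 0.714 on sucrose. Homogentisate dioxygenase HmgA (Y699_03206) had 137 RPM on cellulose, against 32.4 on rice straw, 2.79 on xylan and 12.6 on sucrose. The gene between them, Y699_03205, described as a hypothetical protein, had 31.5 RPM on cellulose, against 7.55 on rice straw, 1.32 on xylan and 0.856 on sucrose. The next gene, Y699_03207, encodes the fumarylacetoacetate hydrolase FahA of the last step and did not meet the rule, with 28.6 RPM on cellulose, against 10.2 on rice straw, 0.88 on xylan and 3.85 on sucrose. Within the run, Y699_03204 was lowest on sucrose and HmgA lowest on xylan.

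The 4 genes of another run, Y699_03520 to Y699_03523, are described as enzymes that make or use glutamine or that belong to dehydrogenase families. The gene described as glutamine synthetase (Y699_03520) had 435 RPM on cellulose, against 25.7 on rice straw, 2.35 on xylan and 1.71 on sucrose, a ratio of 16.9-fold (95% interval 14.6 to 19.7) to rice straw. Y699_03521, of 765 bases, is described as GMP synthase, an enzyme that moves an amino group from glutamine to a purine. It had 121 RPM on cellulose, against 7.94 on rice straw, 1.47 on xylan and 0.571 on sucrose. The aldehyde dehydrogenase Y699_03522 had 441 RPM on cellulose, against 34.3 on rice straw, 6.16 on xylan and 3.28 on sucrose, and the short-chain dehydrogenase Y699_03523 had 145 RPM on cellulose, against 22.8 on rice straw, 3.81 on xylan and 2.0 on sucrose. All of them followed the same order of libraries, cellulose, rice straw, xylan and sucrose. The difference from rice straw was smaller in the flanking genes, which did not meet the rule: Y699_03519 had 25.5 RPM on cellulose, against 24.4 on rice straw, 9.38 on xylan and 7.14 on sucrose, and the C6 transcription factor gene Y699_03524 had 22.9 RPM on cellulose, against 9.0 on rice straw, 3.08 on xylan and 5.14 on sucrose.

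Many members were neighbours in locus order. Of the 244, 59 (24.2%) had another member at the very next locus tag, and 94 (38.5%) within 3 locus tags, while 4.34% and 12.2% of the 9296 other genes had a member that near. There were 10 runs of at least 3 members with at most 1 other gene between neighbours, and these runs held 38 members. The longest unbroken run had 6. Position was not used by the rule, but locus tags follow the assembly, whose contig ends were not used here, and near-identical or overlapping neighbours could share reads. Co-regulated fragments as listed by the authors, a list made on these libraries, held 32 of the 244 among 468 genes (6.84%), and the authors' 30 secondary metabolite clusters held 23 among 440 genes (5.23%), beside 3 that met the rule and were left out by name. CAZyme gene clusters held 14 among 646 genes (2.17%), and 7 more in them had been left out by name. With those, 21 of the 646 met the rule (3.25%), where 2.68% of all genes did.

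**Figure D3:**
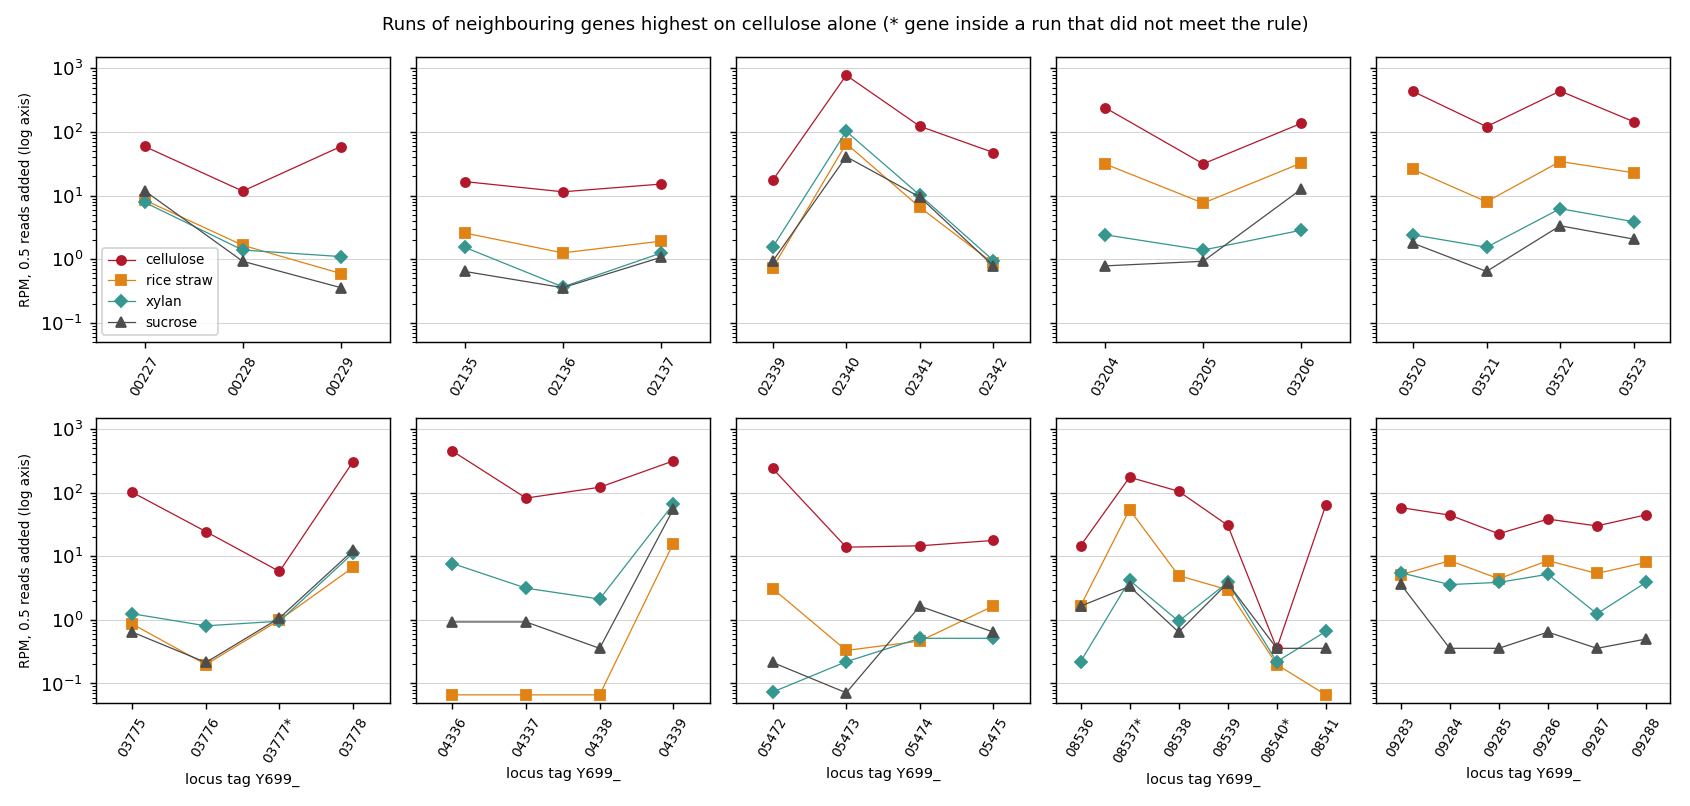
The 10 runs of neighbouring members, with RPM plus 0.5 reads added (log axis) for each gene in locus order and 1 line per library. Genes with an asterisk lie inside a run but did not meet the rule, and a point at the lower edge is a count of 0. Cellulose is the top line in every panel except at Y699_08540, which had 2 reads or fewer in each library.

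The 6 genes of the longest run, Y699_09283 to Y699_09288, began with a squalene-hopene cyclase, an enzyme that folds squalene into a ringed triterpene. This gene had 58.1 RPM on cellulose, against 5.03 on rice straw, 5.42 on xylan and 3.57 on sucrose. The cytochrome P450 gene beside it (Y699_09284) had 44.3 RPM on cellulose, against 8.47 on rice straw, 3.52 on xylan and 0.285 on sucrose, the short-chain dehydrogenase Y699_09286 had 38.3 RPM on cellulose, against 8.47 on rice straw, 5.13 on xylan and 0.571 on sucrose, and the transferase family gene Y699_09288 had 44.8 RPM on cellulose, against 7.94 on rice straw, 3.81 on xylan and 0.428 on sucrose. Unlike the cyclase, which was about as low on sucrose as on xylan and rice straw, the other 5 genes had only 2 to 4 reads on sucrose and 33 to 64 reads on rice straw. The undescribed Y699_09285 and Y699_09287 had 22.5 and 29.9 RPM on cellulose. Next to the run, Y699_09289 and Y699_09290 had 37 and 30 reads on cellulose, below the level threshold.

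Secondary metabolite cluster 10 contributed 4 of its 9 genes, Y699_04336 to Y699_04339. The nonribosomal peptide synthase Y699_04336 had 3161 reads on cellulose, against 0 on rice straw, 52 on xylan and 6 on sucrose. A monooxygenase gene (Y699_04337) had 576 reads on cellulose, against 0 on rice straw, 21 on xylan and 6 on sucrose, and the gene of a FAD-binding protein (Y699_04338) had 853 reads on cellulose, against 0 on rice straw, 14 on xylan and 2 on sucrose. For these 3 genes rice straw gave no read, so they were at least 1134-fold, 207-fold and 306-fold higher on cellulose than on rice straw, at a limit of 3 reads per library, and xylan lay above sucrose. The second peptide synthase of the cluster, Y699_04339, the longest member at 11820 bases, had 2210 reads on cellulose, against 119 on rice straw, 448 on xylan and 382 on sucrose. Its ratio to xylan was 4.79-fold (95% interval 4.33 to 5.32), against 59.1-fold (95% interval 45.0 to 79.3) for Y699_04336. The gene before the run, Y699_04335, a sugar permease, ran the other way, with 44 reads on cellulose, against 15 on rice straw, 331 on xylan and 173 on sucrose.

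Cluster 7 contributed 3 of 12 genes. The polyketide synthase Y699_03778 had 2158 reads on cellulose, against 50 on rice straw, 76 on xylan and 86 on sucrose, and the 2OG-Fe(II) oxygenase gene Y699_03775 had 709 reads on cellulose, against 6 on rice straw, 8 on xylan and 4 on sucrose. The undescribed Y699_03776 had 171 reads on cellulose, against 1 on rice straw, 5 on xylan and 1 on sucrose. Between them Y699_03777 had 40 reads on cellulose and no more than 7 elsewhere, and missed the level threshold. In cluster 12 the polyketide synthase Y699_04695 was much lower, with 65.4 RPM on cellulose, against 13.8 on rice straw, 11 on xylan and 16.0 on sucrose. Altogether 5 of the 45 polyketide and peptide synthase genes were members (11.1%, against 2.56% of all genes). Of the 45, 19 had their highest level on cellulose, 14 on sucrose, 8 on xylan and 4 on rice straw. Their summed level was 5190 RPM on cellulose, 831 on rice straw, 3847 on xylan and 5305 on sucrose. An ABC multidrug transporter in cluster 24 (Y699_07941), of a family that pumps compounds out of cells, had 611 RPM on cellulose, against 69.6 on rice straw, 38.6 on xylan and 62.0 on sucrose. Cluster 17 held the phytanoyl-CoA dioxygenase family gene Y699_05946, with 277 RPM on cellulose, against 18.3 on rice straw, 7.77 on xylan and 0.714 on sucrose, and the aspartate-tRNA ligase gene Y699_05957, with 49.9 RPM on cellulose, against 3.44 on rice straw, 1.17 on xylan and 0.571 on sucrose.

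The conidial pigment genes form cluster 5. PksP (Y699_02122), the polyketide synthase that starts melanin synthesis in conidia, had 607 RPM on cellulose, against 27.0 on rice straw, 60.7 on xylan and 62.1 on sucrose. The undescribed Y699_02125 in the same cluster had 128 RPM on cellulose, against 0.53 on rice straw, 5.13 on xylan and 1.71 on sucrose. The pigment oxidase gene Arb2 (Y699_02127) had 26.8 RPM on cellulose, against 1.19 on rice straw, 5.86 on xylan and 2.0 on sucrose. Between these members lie Arp1, Arp2 and Abr1, which met the rule and were left out by name. PksP was transcribed on every carbon source and lowest on rice straw, while Y699_02125 and Arb2 had no more than 14 reads on rice straw or on sucrose.

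Genes used as markers of conidia were also highest on cellulose. The 8 genes, including PksP, Arb2, Arp1, Arp2, Abr1 and the hydrophobins RodA and RodB, all met the rule, 5 of them left out by name. This list was set with these data known, from descriptions mainly of genes found to vary between these libraries. That all 8 met the rule is therefore no independent evidence. Their summed level was 3564 RPM on cellulose, 89.5 RPM on rice straw, 127 RPM on xylan and 90.2 RPM on sucrose. RodB alone gave 2072 RPM of the cellulose sum. No marker was at 0 in any library. The part of conidia in the levels of the members was not tested. The class V chitinase ChiB1 (Y699_05833), known from ageing hyphae, stood at 974 RPM on cellulose and 20.6, 1.03 and 0.571 RPM on rice straw, xylan and sucrose. Genes described as proteases, the other marker of ageing hyphae used here, summed to 2674 RPM on cellulose, 3387 RPM on rice straw, 1448 RPM on xylan and 1813 RPM on sucrose over 34 genes, of which 2 were members.

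Sporulation words also described a gene away from the pigment cluster. Y699_00227, described as a sporulation-specific oxidase like Dit2, which in *Saccharomyces cerevisiae* makes the dityrosine of the spore wall, had 59.3 RPM on cellulose, against 8.47 on rice straw, 7.77 on xylan and 11.8 on sucrose. It opened a run with the undescribed Y699_00228, at 11.7 RPM on cellulose, and the O-methyltransferase Y699_00229, which had 414 reads on cellulose, against 4 on rice straw, 7 on xylan and 2 on sucrose. Just beyond, Y699_00232, described as a pyoverdine or dityrosine biosynthesis protein, had 1533 reads on cellulose, against 6 on rice straw, 5 on xylan and 5 on sucrose, a ratio of 275-fold (95% interval 126 to 751) to rice straw that was among the 10 highest lower bounds. Y699_00230 and Y699_00231 between them did not meet the rule. Levels of Y699_00229 and Y699_00232 were at or below 7 reads on every other carbon source, whereas Y699_00227 was readily detected on all of them.

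The remaining runs were largely undescribed. In the run Y699_05472 to Y699_05475, the 261-base gene Y699_05472 had 1683 reads on cellulose, against 23 on rice straw, 0 on xylan and 1 on sucrose. Its neighbours Y699_05473, Y699_05474 and Y699_05475 had 97, 102 and 124 reads on cellulose and at most 12 elsewhere. The run Y699_02339 to Y699_02342 contained the abundant Y699_02340 named above together with Y699_02341, at 123 RPM, and Y699_02342, at 47.5 RPM on cellulose and no more than 6 reads elsewhere. Genes Y699_02135, Y699_02136 and Y699_02137 were low, with 116, 80 and 106 reads on cellulose. In the run around the class III chitinase, a gene for a defensin domain protein (Y699_08541), a fold of small antimicrobial peptides, had 447 reads on cellulose, against 0 on rice straw, 4 on xylan and 2 on sucrose. Another gene described as a secreted antimicrobial peptide, Y699_05904, had 308 reads on cellulose, against 8 on rice straw, 10 on xylan and 2 on sucrose. Both peptide genes were at 10 reads or fewer away from cellulose. Outside any run, the undescribed Y699_05499 had 3367 reads on cellulose, against 4 on rice straw, 14 on xylan and 46 on sucrose, and sucrose was its next library at a ratio of 73.1.

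Genes for making ribosomes were a further group, with 12 of 97 listed genes (12.4%). RRP5 (Y699_02269), needed to process the precursor of both ribosomal subunits, had 599 RPM on cellulose, against 118 on rice straw, 45.5 on xylan and 46.5 on sucrose. Rpa190 (Y699_04977), the largest subunit of RNA polymerase I, which transcribes rRNA, had 586 RPM on cellulose, against 133 on rice straw, 69.3 on xylan and 86.5 on sucrose. RRN3 (Y699_07009), which brings this polymerase to the rDNA promoter, had 367 RPM on cellulose, against 61.7 on rice straw, 33.7 on xylan and 19.8 on sucrose. Mrd1 (Y699_06808), a pre-rRNA processing protein, had 414 RPM on cellulose, against 71.0 on rice straw, 47.6 on xylan and 34.7 on sucrose. The small nucleolar ribonucleoprotein genes Mpp10 (Y699_05970) and Utp14 (Y699_06863) had 495 and 385 RPM on cellulose, and Mpp10 was level elsewhere, at 112, 123 and 119 RPM on rice straw, xylan and sucrose. All 12 had at least 10.7 RPM on every carbon source, and their median ratio to the next library was 4.53, close to the threshold. Of the 97 listed genes 94 had their highest level on cellulose, the 12 members among them by the rule, where 999 of the 2588 described genes did.

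Genes for RNA splicing and translation gave 5 members of 29. The splicing factor 3B subunit gene Y699_04463 had 305 RPM on cellulose, against 55.3 on rice straw, 65.8 on xylan and 63.7 on sucrose, and the lysyl-tRNA synthetase gene Y699_06843 had 139 RPM on cellulose, against 32.4 on rice straw, 22.6 on xylan and 33.0 on sucrose. The translation initiation factor eIF4E3 gene (Y699_00280) and the pre-mRNA-splicing factor gene Y699_00747 had 65.1 and 42.3 RPM on cellulose. Like the ribosome genes, these 4 lay close to the 4-fold threshold, and none was called between rice straw, xylan and sucrose.

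Among 99 described transcription regulators 7 were members (7.07%), near the 5.76% of all described genes. Ctf1B (Y699_05667), a zinc-cluster protein named after a cutinase activator of *Fusarium*, had 1544 RPM on cellulose, against 244 on rice straw, 159.8 on xylan and 227 on sucrose. PacC (Y699_01358), which in *Aspergillus nidulans* switches genes in response to alkaline pH, had 858 RPM on cellulose, against 207 on rice straw, 194 on xylan and 148 on sucrose. A C2H2 finger protein gene (Y699_01161) had 289 RPM on cellulose, against 27.7 on rice straw, 31.8 on xylan and 34.7 on sucrose, and the HLH protein gene Y699_06060 had 193 RPM on cellulose, against 11.0 on rice straw, 6.89 on xylan and 4.85 on sucrose. The C6 zinc finger genes Y699_01334 and Y699_08500 had 67.5 and 54.2 RPM on cellulose. Ctf1B and PacC exceeded 148 RPM on every carbon source. Outside this list, Y699_08801 carries the name AlcS and a description that ties it to ethanol use. Whether it is a regulator was not tested. Named after its values were seen, it had 432 reads on cellulose, against 20 on rice straw, 1 on xylan and 0 on sucrose.

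Transporters gave 8 members of 153 (5.23%, against 5.76% of all described genes), and none was described as a sugar transporter. The MFS multidrug transporter gene Y699_06260 had 510.2 RPM on cellulose, against 60.6 on rice straw, 43.0 on xylan and 23.1 on sucrose, and Y699_00934, of the same description, had 144 RPM on cellulose. The ABC transporter Y699_02471 had 181 RPM on cellulose, against 29.3 on rice straw, 27.7 on xylan and 18.0 on sucrose, and the CorA family metal ion transporter Y699_03707 had 270.5 RPM on cellulose, against 47.9 on rice straw, 38.9 on xylan and 16.7 on sucrose. Y699_03963, a further ABC transporter, had 129.7 RPM on cellulose. At the cell surface, the GPI-anchored protein gene Y699_06343 had 457 RPM on cellulose, against 51.6 on rice straw, 41.0 on xylan and 30.7 on sucrose, and the gene of an extracellular serine-rich protein (Y699_01262) had 69.3 RPM on cellulose, against 1.72 on rice straw, 2.49 on xylan and 2.14 on sucrose. Of 79 genes with surface words, 5 were members (6.33%), also near the share of all described genes.

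Among the word lists, that of the oxidoreductases held the most members, 19 of 266 genes (7.14%, against 5.76% of all described genes), beside 3 left out by name. The phytanoyl-CoA dioxygenase family gene Y699_02861, of a family that hydroxylates fatty acyl chains, had 413 RPM on cellulose, against 92.2 on rice straw, 13.8 on xylan and 4.28 on sucrose. Together with inositol oxygenase, HMG-CoA reductase, Y699_03204, Y699_03522 and Y699_05946, it was among the 6 most abundant of the group. The esterase gene Y699_00737, described as a triglyceride lipase, had 381 RPM on cellulose, against 64.5 on rice straw, 28 on xylan and 35.5 on sucrose.

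Whether the members also differed among the other carbon sources was asked in comparisons that do not contain the cellulose library. A call needed an adjusted p of at most 0.0001 in a two-sided exact binomial test of the reads, a 4-fold difference and 10 RPM, with p adjusted by the Benjamini-Hochberg method over every gene that had a read in the pair. Without replicates, such a call says that the pair of libraries differed, which need not hold for the carbon sources. The rule keeps all 3 of these levels at least 4-fold below cellulose, and only 96 members reached 10 RPM on rice straw or sucrose, 84 on xylan or sucrose and 98 on rice straw or xylan. Between rice straw and sucrose 17 members were higher (6.97%) and 2 were lower (0.82%), where 7.6% of the 9408 genes tested were higher and 7.11% lower. Between xylan and sucrose 4 were higher (1.64%) and 1 was lower (0.41%), against 3.15% and 1.58% of 9392 genes. Between rice straw and xylan 12 were higher (4.92%) and 4 lower (1.64%), against 4.54% and 4.67% of 9410 genes. Counting only genes at 10 RPM in the pair, 17 of 96 members and 715 of 6951 genes were higher on rice straw than sucrose. On xylan over sucrose these were 4 of 84 and 296 of 6649, and on rice straw over xylan 12 of 98 and 427 of 6752. Lower calls numbered 2, 1 and 4 among members, against 669, 148 and 439 of all genes. Shares over all members are smaller because most members fell short of that level. No member was called in opposite directions on rice straw and on xylan against sucrose. Too few were called on xylan for this to be informative. Rice straw and xylan shared the sucrose library in these comparisons. These calls take the libraries as they are, and edgeR's exact test, given a biological coefficient of variation of 0.2 by assumption, called no member between xylan and sucrose. At 0.4 it called 4 members higher on rice straw than on sucrose, among 153 of all genes, and no member in any other direction or comparison.

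**Figure D4:**
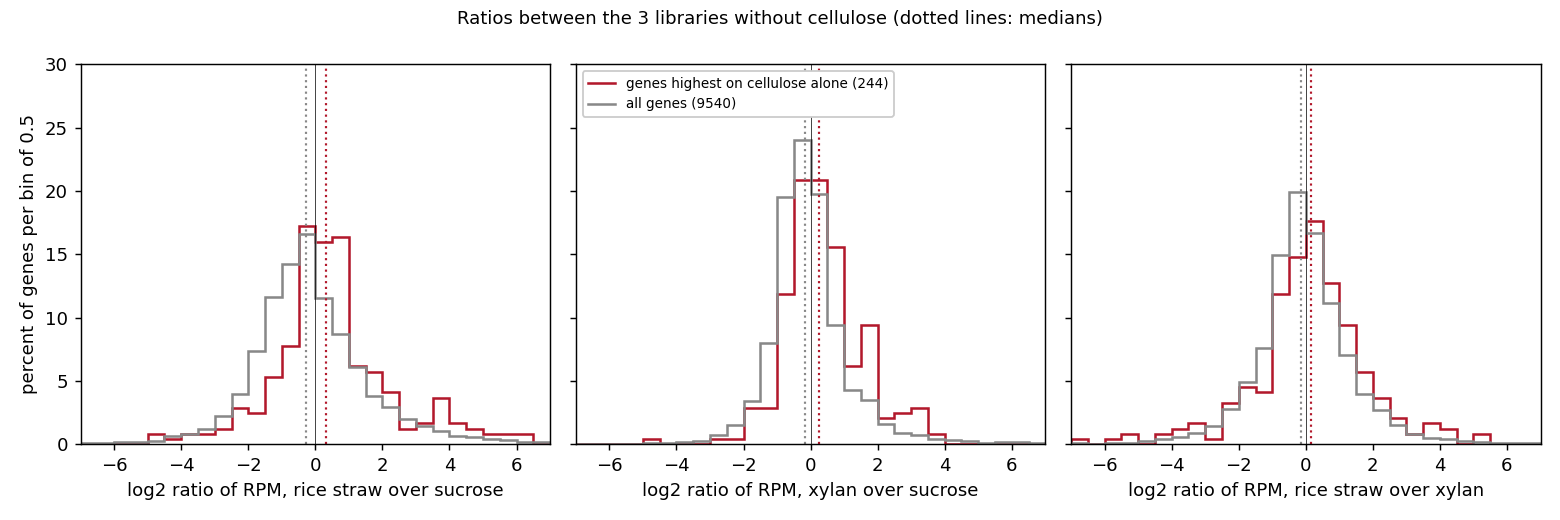
Distribution of log2 ratios of RPM (0.5 reads added) between the 3 libraries other than cellulose, as the percent of genes per bin of 0.5, for the 244 members (red) and for all 9540 genes (grey), with dotted lines at the medians. The members' medians of 0.31, 0.24 and 0.16 lie to the right of those of all genes at -0.28, -0.18 and -0.13.

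The median member was 0.31 higher on rice straw than on sucrose (log2), 0.24 higher on xylan than on sucrose and 0.16 higher on rice straw than on xylan, whereas all genes had medians of -0.28, -0.18 and -0.13. Inositol oxygenase was higher in all 3 comparisons, by 64.8-fold (95% interval 47.5 to 91.0) on rice straw over sucrose, 4.57-fold (95% interval 3.23 to 6.61) on xylan over sucrose and 14.2-fold (95% interval 12.2 to 16.6) on rice straw over xylan. The dioxygenase gene Y699_03204 was 44.0-fold (95% interval 18.6 to 137) higher on rice straw than on sucrose, glutamine synthetase Y699_03520 was 15.0-fold (95% interval 8.39 to 29.5) higher, and Y699_02861 was 21.5-fold (95% interval 14.9 to 32.1) higher. The mannosidase Y699_08193 was higher on rice straw by 16.3-fold (95% interval 11.2 to 24.6) and on xylan by 4.21-fold (95% interval 2.79 to 6.56), each over sucrose. A D-mandelate dehydrogenase gene (Y699_04694), named after its values were seen, was 76.3-fold (95% interval 29.5 to 282) higher on rice straw than on sucrose, with 1281 reads on cellulose, against 329 on rice straw, 17 on xylan and 4 on sucrose. The 17 members higher on rice straw included 7 of 19 oxidoreductase members, where 81 of 266 listed oxidoreductases were higher. They included 6 of 32 members in co-regulated fragments (104 of 468 listed genes) and 3 of 20 CAZyme members (110 of 529). None of the 12 ribosome, 8 transporter or 7 regulator members was higher, where 22 of 97, 57 of 153 and 26 of 99 listed genes were. The rule holds rice straw at least 4-fold below cellulose in members, so these counts describe no trait of the groups.

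Some members were lower on rice straw. The undescribed Y699_04508 of cluster 11 and Y699_09351, both named after their values were seen, had 33 and 41 reads on rice straw against 139 and 194 reads on sucrose, ratios of 0.22 and 0.196. The peptide synthase Y699_04339 was lower on rice straw than on xylan, with a ratio of 0.24 (95% interval 0.194 to 0.294), and the undescribed Y699_02082 of cluster 4, named after its values were seen, had a ratio of 0.131. HmgA was lower on xylan than on sucrose, with a ratio of 0.222 (95% interval 0.128 to 0.367), and 11.6-fold (95% interval 7.3 to 19.7) higher on rice straw than on xylan. The undescribed Y699_00663 was 5.18-fold (95% interval 3.35 to 8.3) higher on xylan than on sucrose.

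Of the 244 members, 149 had a description and 95 had none, and 34 of the descriptions read hypothetical protein, leaving 115 genes with a named function or domain and 129 without.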

How the data were processed

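The members and all lists were chosen with earlier results of these data known. The authors mapped clean RNA-seq reads to the predicted genes of strain Z5 with Bowtie 0.12.2 and deposited, for 9540 genes, a read count per library and RPM values that equal reads divided by the library total, times 1000000. For strand use and for reads that map to several genes, the treatment is not given in the sources used here. Gene length was deposited as well and is a multiple of 3 throughout, so it was taken as coding length. Columns with the authors' own fold changes, tests and up or down calls were not used.

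Read counts were used as deposited. Intervals of ratios are exact (Clopper-Pearson). The read test was checked on simulated data. Reads in 0-read libraries were set to 3 for lower bounds. Named genes are the 10 with the highest cellulose RPM, the 10 with the highest lower bound of the ratio, up to 6 per gene group, all members of runs of at least 3, and 3 on each side of each threshold, and members the paper names; others are marked. The lists are the authors' CAZyme, wall enzyme, secretory, fragment and cluster lists, and words in gene descriptions. Alternatives changed the scaling, the reads added, the thresholds and the read test. Python 3.11.15, scipy 1.17.1, edgeR 4.0.16 and DESeq2 1.42.0 were used. No sequence is shown, because no genome of this strain was used here.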

Additional observations from a re-analysis of the deposited data

How the results depend on the processing

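The rule gave 170 genes with edgeR TMM factors, 169 with DESeq2 size factors and 195 with totals that leave out the most abundant 1% of genes, all of them among the 244, and the median ratio to the next library became 4.96, 4.95 and 5.46. A minimum ratio of 8 left 84 genes and 16 with a member beside them, a neighbour within 3 locus tags gave 94, no RPM minimum gave 319 genes, and adding nothing to the reads gave 244 genes, 242 of them shared. Without an RPM minimum, members were higher and lower in 33 and 8 cases on rice straw against sucrose, 13 and 1 on xylan against sucrose, and 21 and 17 on rice straw against xylan. At a fold of at least 2 these were 31 and 11, 15 and 4, and 24 and 11. With TMM or DESeq2 factors 1 was lower on rice straw and 0 on xylan against sucrose, and 2 were lower on rice straw against xylan, as with trimmed totals (2). With edgeR's exact test and a biological coefficient of variation set to 0.2, 1 was lower on rice straw and 0 were higher or lower on xylan against sucrose. Set to 0.4, 4 were higher and 0 lower on rice straw against sucrose, and 0 were called in the other comparisons. The cause of these shifts was not tested. No paired analysis was possible because each carbon source had 1 library, and for the same reason no replicate could be left out. Every ratio rests on 1 library per carbon source, so variation between cultures is unknown, and genes near 10 RPM rest on about 70 reads.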
